A study of Saccharomyces cerevisiae with 2 samples.

Results

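The genes described here encode the proteasome of budding yeast, Saccharomyces cerevisiae, and Rpn4, the transcription factor that drives them. The members were taken by systematic gene name: 14 subunits of the 20S core particle, 18 subunits of the 19S regulatory particle and RPN4, 33 of the 6868 features on the arrays. The lid subunit SEM1 is not among them and is given with the related genes. All 33 carry a symbol in the reference gene table, and they lie on 13 chromosomes. The core particle is a barrel of alpha and beta rings whose inner beta subunits cut proteins. The regulatory particle caps it, binds ubiquitin-tagged proteins, removes the ubiquitin and unfolds them with a ring of ATPases. Rpn4 binds a short promoter element shared by most proteasome genes and is itself degraded quickly by the proteasome, so its gene and its targets form a feedback loop. Promoter sequences were not used here.

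The study measured mRNA on 2 two-colour tiling arrays, 1 with RNA from cells held in 0.7 M NaCl for 60 min and 1 with RNA from cells held in it for 30 min, each hybridised with RNA from unstressed cells. The strain in all channels was BY4742, given as WT his3kan, grown in synthetic complete medium. The dyes ran the same way on both arrays, so dye and salt cannot be told apart. The name of the unstressed RNA differs between the arrays, and the labels do not say whether it came from the same culture. Each value is a log ratio of the channels of 1 array, and base 2 was assumed. Neither time was replicated, which leaves every value without an error and allows no test, and the number of arrays limits the precision. An interquartile range below is the spread over genes, not a replicate error.

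The deposited ratio has no stated direction, and salt over unstressed was taken as likely. The basis is a list of 10 textbook salt-induced genes, all positive at both times (0.34 to 6.53 at 60 min, 2.23 to 8.32 at 30 min), and the 131 RPL and RPS ribosomal protein genes, all negative at both times. If the ratio runs the other way, every "higher" and "lower" below swaps. Both arrays have a median of 0 over all features, so a value says how a gene stood relative to the other features. The SD over features was 0.71 at 60 min and 1.33 at 30 min, so an equal log2 value is further out on the 60 min array.

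The proteasome genes were near the median of all features at 60 min and together above it at 30 min. The median over the 33 genes was 0.03 at 60 min (interquartile range -0.07 to 0.12) and 0.66 at 30 min (0.58 to 0.81), against 0 for all features at either time. The 30 min median corresponds to a ratio of 1.59. At 60 min 18 members were positive and 15 negative, against 49.4% of all features positive. At 30 min all 33 were positive, against 49.5% of all features. The members thus differed from the background in sign at 30 min, and at 60 min their split was close to it.

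Few members were far from 0. No member was at least 2-fold higher at 60 min, against 6.67% of all features, and RPN4 alone was at least 2-fold higher at 30 min, against 15.8% of all features. By this threshold the share of members was below that of all features at both times. At 1.5-fold, RPN4 alone was higher at 60 min (background 14.3%), and 24 of 33 were higher at 30 min (72.7%, background 26.6%). No member was 1.5-fold lower at either time, against 13.8% of features at 60 min and 26.6% at 30 min, and so none was 2-fold lower, against 4.32% and 17.3%. The 30 min pattern was therefore of many small ratios of the same sign.

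**Figure D1:**
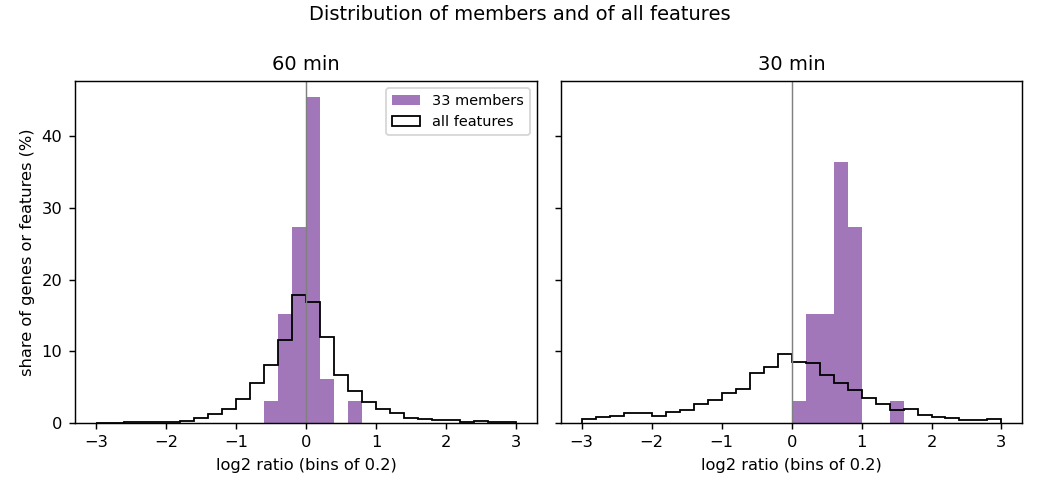
Share of genes in bins of 0.2 on the log2 ratio axis, at 60 min (left) and 30 min (right), for the 33 members (filled) and all 6868 features (outline); values beyond 3 either way are not drawn. At 30 min every member lies right of 0 (median 0.66), and at 60 min the members lie on both sides of it (median 0.03).

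The ratios of the 32 subunit genes lay close together. Their interquartile range was 0.19 wide at 60 min and 0.23 wide at 30 min, against 0.63 and 1.27 for all features. At 60 min 27 of 32 lay within 0.25 of the subunit median, where 41.6% of all features also lay. At 30 min 23 of 32 did, and 14.5% of all features. The highest and lowest subunits were RPN2 (0.31) and PUP2 (-0.42) at 60 min, and RPT5 (0.99) and PUP2 (0.08) at 30 min.

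RPN4 (YDL020C), the regulator, had the highest value of the 33 genes at each time. Its log2 ratio was 0.68 at 60 min and 1.58 at 30 min, which is 1.60-fold and 2.99-fold. The next member was RPN2 at 60 min, with 0.31, and RPT5 at 30 min, with 0.99. RPN4 ranked 827 of 6868 features at 60 min and 566 at 30 min, so many genes outside the proteasome had larger ratios. Its neighbours on the chromosome in the reference annotation were also positive. GPM2, whose product is related to phosphoglycerate mutase and which lies downstream on the other strand, had 1.504 at 60 min and 2.21 at 30 min, and OSH2, upstream on the same strand, had 0.29 and 1.33.

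In the alpha ring, which forms the gate of the core, the 7 genes had medians of 0.03 at 60 min and 0.56 at 30 min. PUP2 (YGR253C) stood lowest of all members at both times, with -0.42 at 60 min and 0.08 at 30 min, and PRE5 (YMR314W) had -0.28 and 0.26. PRE9 (YGR135W), the alpha subunit that yeast can live without, had 0.07 at 60 min and 0.31 at 30 min. The other alpha genes were higher at 30 min. PRE10 (YOR362C) had 0.09 at 60 min and 0.72 at 30 min, PRE6 (YOL038W) had 0.03 and 0.62, PRE8 (YML092C) had 0.06 and 0.61, and SCL1 (YGL011C) had -0.07 and 0.56. The alpha ring thus held 3 of the 6 subunit genes with a 30 min value under 0.5, the others being RPN13, RPT1 and RPN10.

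The 7 beta ring genes lay in a narrow band at 30 min, from 0.58 to 0.81 (median 0.66), and had a median of -0.04 at 60 min. The catalytic subunits were alike at 30 min. PRE2 (YPR103W), with the chymotrypsin-like site, had -0.02 at 60 min and 0.67 at 30 min. PUP1 (YOR157C), with the trypsin-like site, had -0.06 and 0.64, and PRE3 (YJL001W), with the caspase-like site, had 0.14 and 0.66. The non-catalytic subunits spread further at 60 min: PRE7 (YBL041W) had 0.03 at 60 min and 0.66 at 30 min, PRE4 (YFR050C) had -0.04 and 0.81, PRE1 (YER012W) had -0.21 and 0.58, and PUP3 (YER094C) had -0.23 and 0.69. At 60 min only PRE3 and PRE7 of this ring were positive.

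The 6 ATPases of the base, which unfold substrates and feed them into the core, had medians of 0.05 at 60 min and 0.70 at 30 min (interquartile range 0.29 wide at 30 min). RPT5 (YOR117W) had 0.17 at 60 min and 0.99 at 30 min, just under the 2-fold line. RPT3 (YDR394W) had -0.002 at 60 min and 0.91 at 30 min, and RPT2 (YDL007W) had 0.11 and 0.80. The other ATPases were lower at 30 min: RPT4 (YOR259C) had -0.15 at 60 min and 0.60 at 30 min, RPT6 (YGL048C) had 0.17 and 0.60, and RPT1 (YKL145W) had -0.11 and 0.27.

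Among the remaining subunits of the base and the ubiquitin receptors, the large scaffolds had higher values at 30 min than the receptors. RPN1 (YHR027C), which docks shuttle factors, had 0.20 at 60 min and 0.64 at 30 min, and RPN2 (YIL075C), which holds the receptor Rpn13, had 0.31 and 0.83. The receptor genes were lower at 30 min, with -0.22 at 60 min and 0.23 at 30 min for RPN10 (YHR200W), and 0.14 and 0.33 for RPN13 (YLR421C). RPN13 had the smallest difference between the times of all members, -0.20.

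The 8 lid genes had the highest median of the subunit groups at 30 min, 0.79, and 0.05 at 60 min. RPN11 (YFR004W), the metalloprotease that removes ubiquitin chains, had -0.28 at 60 min and 0.68 at 30 min, and its partner subunit RPN8 (YOR261C) had -0.07 and 0.58. RPN9 (YDR427W) had 0.07 at 60 min and 0.95 at 30 min, the highest lid value at 30 min. RPN3 (YER021W) had 0.12 at 60 min and 0.88 at 30 min, RPN5 (YDL147W) had 0.05 and 0.88, RPN7 (YPR108W) had 0.20 and 0.82, RPN6 (YDL097C) had 0.06 and 0.77, and RPN12 (YFR052W) had -0.05 and 0.67. All of the listed lid genes but RPN8 (1.49-fold) exceeded 1.5-fold at 30 min, against 26.6% of all features. None did at 60 min, against 14.3%. By particle, the 18 regulatory particle genes had medians of 0.06 at 60 min and 0.72 at 30 min, and the 14 core genes had -0.03 and 0.63.

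**Figure D2:**
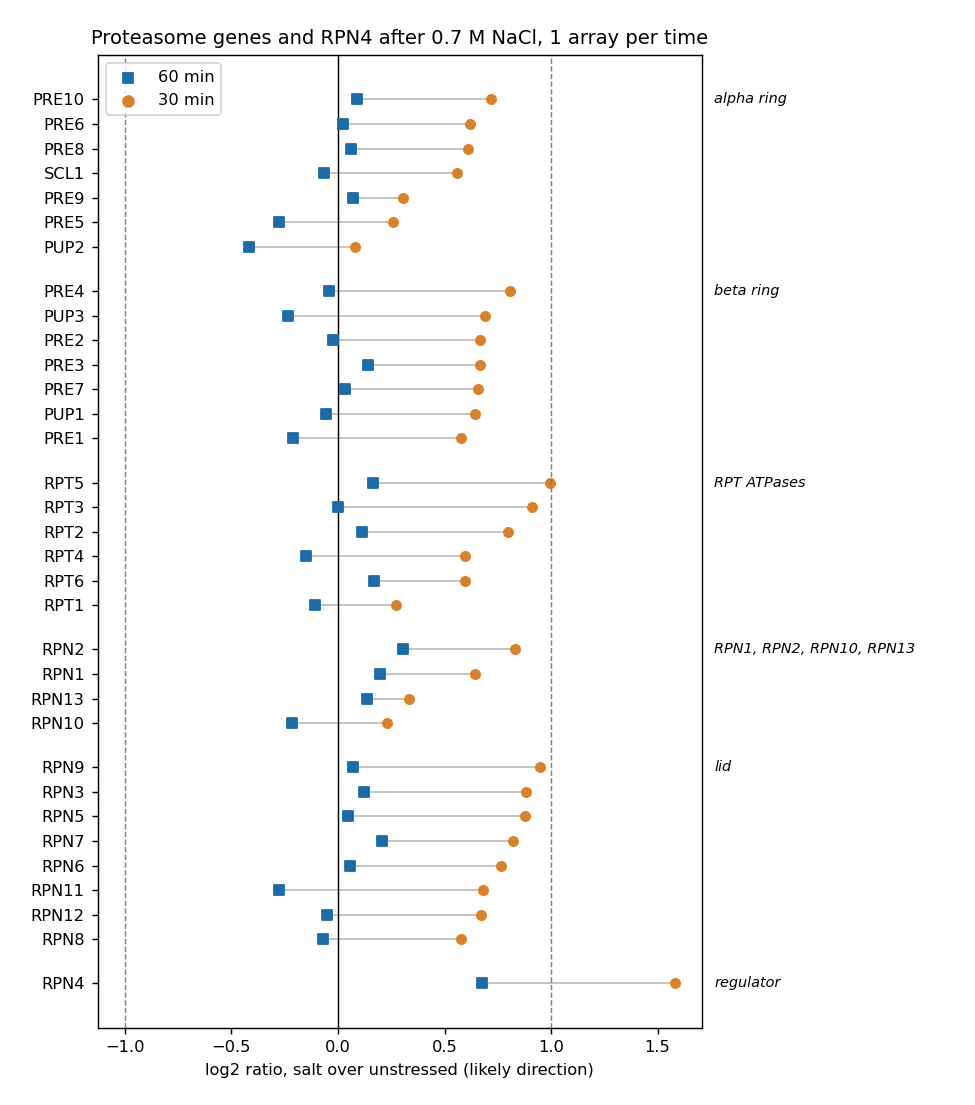
Log2 ratio (x axis) of each of the 33 genes at 60 min (squares) and 30 min (circles), grouped by place in the proteasome, with dashed lines at 2-fold. Every circle lies right of its square, RPN4 alone passes 2-fold at 30 min, and PUP2 is lowest at both times (-0.42 and 0.08).

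The change between the times was taken per gene as the log2 ratio at 60 min less that at 30 min. The difference was negative for all 33 genes, against 49.5% of all features and 84.7% of the features that were positive at 30 min. The second share is the nearer background, since every member was positive at 30 min. The median difference was -0.65 (interquartile range -0.79 to -0.53), and 22 of 33 were at least 1.5-fold lower at 60 min than at 30 min, against 18.5% of all features. The largest was that of RPN11 (-0.96), followed by PUP3 (-0.93), RPT3 (-0.91) and RPN4 (-0.90). No member was 2-fold lower at 60 min than at 30 min, against 8.85% of features. The 18.5% and the 8.85% are shares of all features. They were not computed over the features positive at 30 min, the nearer background.

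At 60 min the members divided by sign. Of the 33 members 18 (54.5%) were positive at both times, while 78.1% of the 3399 features positive at 30 min were positive at 60 min. RPN4 kept the larger value, 0.68 at 60 min, while the 32 subunit genes had a median of 0.03 at 60 min. The order of the subunits was partly shared between the arrays: Pearson's r was 0.56 and Spearman's rho 0.48 over the 32 genes, and with RPN4 they were 0.71 and 0.52 over 33. These describe genes, which are not independent samples, and over the 6764 features with a nonzero value on both arrays r was 0.79. The 60 min array had the smaller spread over all features (SD ratio 0.53). Multiplying its values by 1.88, so that the spreads were equal, left all 33 differences negative. For the 15 members that were positive at 30 min and negative at 60 min, this step could give no other sign.

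**Figure D3:**
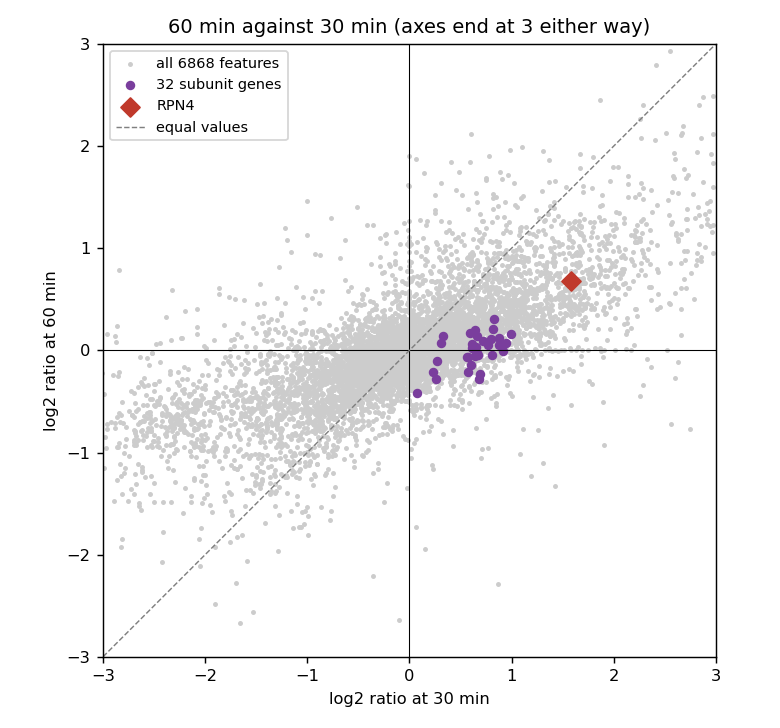
Log2 ratio at 60 min (y axis) against 30 min (x axis) for all features (grey), the 32 subunit genes (circles) and RPN4 (diamond), with a dashed line of equal values; points beyond 3 either way are not drawn. The subunits form a compact group right of 0 and around 0 on the y axis, below the dashed line, and RPN4 lies apart, with 0.68 at 60 min and 1.58 at 30 min.

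The genes beside the members on the chromosome, looked up after the values were seen, spread more widely. In the reference annotation the members have 64 different protein-coding neighbours with a value. Their medians were -0.01 at 60 min and 0.16 at 30 min. Of the 64, 30 were positive at 60 min and 36 at 30 min, against 49.4% and 49.5% of all features. Of 66 pairs of a member and its neighbour, the member was higher in 39 at 60 min and in 49 at 30 min. No such share was computed for other genes and their neighbours. The 21 genes that lie next upstream of a member on the other strand ranged from -3.52 (NOP14, beside RPN5) to 1.60 (YDL007C-A, beside RPT2) at 30 min. The interquartile range of the neighbours at 30 min was 1.06 wide, against 0.23 for the members.

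Some factors that assemble the proteasome or attach to it had larger ratios than any subunit at 30 min. Of 16 genes, TMA17 alone was at least 2-fold higher at 60 min, and 6 were 2-fold higher and POC4 lower at 30 min (medians 0.18 at 60 min and 0.74 at 30 min). Of all features, 6.67% were 2-fold higher at 60 min and 15.8% at 30 min, and 17.3% were 2-fold lower at 30 min. TMA17, a chaperone for base assembly, had 1.01 at 60 min and 2.89 at 30 min, or 2.01-fold and 7.41-fold. The others past 2-fold at 30 min bind or regulate the proteasome. SPG5, a regulator known from stationary phase, had 0.85 at 60 min and 1.63 at 30 min, ECM29, which holds core and cap together, had 0.76 and 1.44, and BLM10, an alternative activator, had 0.50 and 1.08. HUL5, a ubiquitin ligase bound to the proteasome, had 0.23 at 60 min and 1.44 at 30 min, and UBP6, its opposing deubiquitinase, had 0.17 and 1.33.

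The dedicated assembly chaperones other than TMA17 were within 2-fold at 60 min, and at 30 min all but POC4 were. UMP1, which guides core maturation, had 0.14 at 60 min and 0.67 at 30 min, close to the subunits. The base chaperones had 0.03 and 0.82 (NAS2), -0.01 and 0.86 (RPN14), 0.20 and 0.59 (HSM3), and 0.42 and 0.39 (NAS6), at 60 min and 30 min in each case. The alpha ring chaperones were lower: PBA1 had -0.31 at 60 min and 0.40 at 30 min, its partner ADD66 had -0.30 and 0.22, and IRC25 had -0.38 and -0.45. POC4, the partner of IRC25, had 0.40 at 60 min and -1.02 at 30 min. SEM1, a lid subunit by structure, had -0.27 at 60 min and -0.52 at 30 min, so the positive sign at 30 min held for the 33 listed genes and not for this further subunit.

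Among ubiquitin and its enzymes, UBI4 and UBC5 stood above the rest. Of 12 genes both of these, and no other, were at least 2-fold higher at 60 min and at 30 min (list medians 0.26 and 0.53). Of all features, 6.67% were 2-fold higher at 60 min and 15.8% at 30 min. The share of the list was close to that of all features at 30 min. UBI4, the stress-induced polyubiquitin gene, had 1.15 at 60 min and 2.28 at 30 min. UBC5 had 1.05 and 1.96, while UBC4, which encodes a nearly identical conjugating enzyme, had -0.07 and -0.43. Sequences shared by UBC4 and UBC5, or by UBI4 and the other ubiquitin genes, may share signal on the array. The genes on this list whose products remove ubiquitin or extend its chains were within 2-fold. DOA4 had 0.29 at 60 min and 0.94 at 30 min, UFD2 had 0.34 and 0.94, and UBP14 had 0.23 and 0.30. The ligases on this list were also within 2-fold. They had 0.40 and 0.79 for UFD4, 0.17 and 0.58 for RSP5, 0.11 and 0.48 for UBR1, and 0.20 and 0.23 for TOM1. The ligase HUL5 and the deubiquitinase UBP6, given above, were past 2-fold at 30 min. UBA1, the activating enzyme, had 0.51 at 60 min and 0.28 at 30 min.

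The genes that act on Rpn4 itself were within 2-fold at both times. So were most of the 6868 features, 6113 at 60 min and 4595 at 30 min. UBR2, the ligase that marks Rpn4 for degradation, had 0.38 at 60 min and 0.85 at 30 min, and its partner MUB1 had 0.18 and 0.55. RAD6, the conjugating enzyme of this route, had -0.55 at 60 min and -0.48 at 30 min. The regulators listed upstream of RPN4 had 60 min values from -0.31 to 0.43 and 30 min values from 0.35 to 0.91. All were positive at 30 min, against 49.5% of all features. YAP1, the oxidative stress factor, had 0.17 at 60 min and 0.91 at 30 min, and HSF1, the heat shock factor, had -0.31 and 0.71. The drug response factors PDR1 and PDR3 had 0.04 and 0.14 at 60 min, and 0.50 and 0.35 at 30 min. The general stress factors MSN2 and MSN4 had 0.43 and 0.42 at 60 min, and 0.62 and 0.44 at 30 min.

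The Cdc48 and shuttle genes, which bring substrates to the proteasome, went both ways. Of all features, 6.67% were at least 2-fold higher and 4.32% lower at 60 min. At 30 min these shares were 15.8% and 17.3%. Of the 9 genes, none was at least 2-fold higher and DSK2 was lower at 60 min. At 30 min 4 were 2-fold higher and none lower (list medians -0.24 at 60 min and 0.95 at 30 min). The 4 were CUZ1, a zinc finger protein that binds Cdc48 (0.02 at 60 min and 1.23 at 30 min), the shuttle DDI1 (-0.24 and 1.21), NPL4 (0.16 and 1.18) and SHP1 (0.05 and 1.10), of which the last pair are partners of Cdc48. UFD1, which works with Npl4, had -0.26 at 60 min and 0.95 at 30 min, and CDC48 had 0.46 and 0.55. The other shuttle factors were negative, DSK2 with -1.43 at 60 min and -0.74 at 30 min and RAD23 with -0.43 and -0.02, as was the protease gene WSS1 with -0.25 and -0.25.

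Over these lists together, 45 genes after counting RAD6 once, the spread was wider than in the proteasome itself. Their interquartile range was 0.47 wide at 60 min and 0.78 wide at 30 min, against 0.19 and 0.23 for the 33 members. Of the 45, 3 were at least 2-fold higher at 60 min and 12 at 30 min (6.67% and 26.7%), against 6.67% and 15.8% of all features. The medians were 0.17 at 60 min and 0.62 at 30 min. Of the 45 differences between the times 38 were negative (84.4%). The share was 49.5% of all features and 84.7% of those positive at 30 min. At 30 min 4 of the 45, TMA17, UBI4, UBC5 and SPG5, exceeded RPN4 (8.89%), close to the 8.23% of all features that did. The 12 that exceeded every subunit at 30 min were 26.7% of the 45, against 16.0% of all features.

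**Figure D4:**
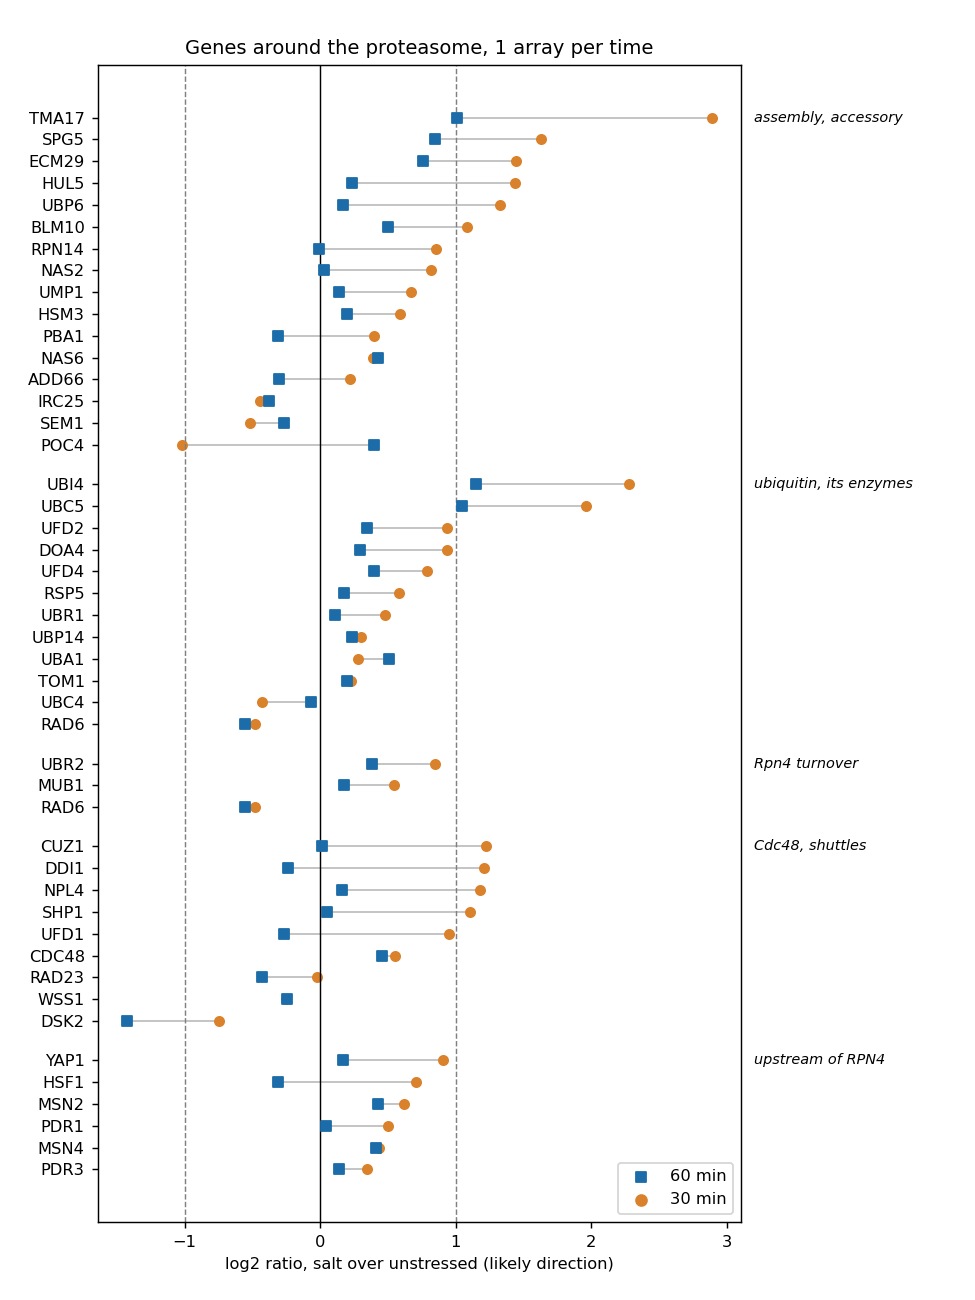
Log2 ratio (x axis) at 60 min (squares) and 30 min (circles) of the genes of the proteasome's assembly, ubiquitin supply and substrate delivery and of RPN4's regulators, with dashed lines at 2-fold; RAD6 stands in both lists that hold it. TMA17, UBI4 and UBC5 are past 2-fold at both times, DSK2 is 2-fold lower at 60 min and POC4 is 2-fold lower at 30 min.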

How the data were processed

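The authors deposited log ratios, taken as log2, for each feature, and per the labels each array carried salt-stressed and unstressed RNA in different dyes. Their steps before deposit (background correction, normalization, combining of tiled probes, build) were not given in the sources used here. The log base is not stated: base 2 was assumed, since the values run from -5.16 to 8.32, and base 10 would lie beyond a scanner's range. Features were matched by locus tag to the reference gene table (assembly R64, 5984 of 6868 matched), used for names and for which genes adjoin. No member was listed at exactly 0.

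Medians, counts past 2-fold (log2 ratio at least 1 or at most -1) and differences between the times were computed with pandas 2.3.3 and numpy 2.4.6. The summary was run on simulated data with planted shifts, which checks its arithmetic and not whether a shift would be detected. With 1 array per time there was no test and no p-value. The alternatives were another centring, a rescaled 60 min array, natural logs, 1.5-fold and leaving out RPN4. The text names all members and all genes of the related lists. The promoter motif counts that had been planned were not run, since no promoter sequence was used here. The members and lists were chosen with earlier results of these data known.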

Additional observations from a re-analysis of the deposited data

Results flagged for a closer look

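Of the 78 genes described, 22 had opposite signs at the 2 times, 15 of the 33 members and 7 of the 45 related genes, as did 1427 of all 6868 features (20.8%). With 1 array per time these differences were not tested, and the 60 min values of the 15 members lie between -0.42 and -0.002. The 60 min minus 30 min differences of the members were -0.63 for SCL1, -0.50 for PUP2, -0.53 for PRE5, -0.70 for PUP1, -0.93 for PUP3, -0.79 for PRE1, -0.69 for PRE2 and -0.85 for PRE4 in the core. In the regulatory particle they were -0.38 for RPT1, -0.91 for RPT3, -0.75 for RPT4, -0.45 for RPN10, -0.65 for RPN8, -0.96 for RPN11 and -0.72 for RPN12. All 15 members were negative at 60 min and positive at 30 min.

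The other 7 were related genes. The differences were -0.71 for PBA1, -0.52 for ADD66, -0.87 for RPN14, -1.21 for UFD1, -1.45 for DDI1 and -1.02 for HSF1, each negative at 60 min and positive at 30 min. POC4 went the other way, with a difference of 1.42.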

How the results depend on the processing

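No alternative reversed the sign of a median or of RPN4. For several this was fixed in advance. Natural logs multiply every value by the same positive number and can reverse no sign. Rescaling the 60 min array could have reversed only the median difference. The 1.5-fold threshold leaves these values unchanged. Centring on the 5267 named genes gave 2 members at least 2-fold higher at 30 min (RPT5 joined RPN4) and 19 positive members at 60 min (RPT3 turned positive). Rescaling the 60 min array moved RPN4 to 1.27 at 60 min, so that 1 member was 2-fold higher, while 15.7% of all features then were. If the deposited values are natural logs, the member median is 0.96 at 30 min and the median difference is -0.93. RPN4 then has 0.98 at 60 min and 2.28 at 30 min, and 12 members are 2-fold higher at 30 min. More features pass 2-fold as well: 22.4% of all features exceeded PRE10, the lowest of the 12, at 30 min. A 1.5-fold threshold counted 1 member at 60 min and 24 at 30 min. Leaving out RPN4 moved the medians by less than 0.1. Adding SEM1 (chosen after seeing the data) left 18 genes positive at 60 min and 33 at 30 min, now of 34. The planned motif alternatives were not run. No paired analysis was possible because each time has 1 array. The scanner signals were not used here, so signal over background is unknown.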
